A study of Homo sapiens with 18 samples.

Results

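The experiment described here is the silencing of RAD21 in U2OS-MycER cells with active MycER, 24 h after transfection. Its members were chosen by the siRNA, the presence of OHT and the time in the library names, and they are 4 of the 18 RNA-seq libraries of the series: 2 siRAD21 OHT 24h libraries against 2 siCtrl OHT 24h libraries. U2OS cells derive from a human osteosarcoma, and those of every group were transduced with a retrovirus that encodes MycER, a fusion of the Myc protein with the hormone-binding part of the estrogen receptor. OHT (4-hydroxytamoxifen) at 400 nM was given at the time of transfection to siCtrl and siRAD21 cells alike, so the 4 libraries differ only in the siRNA. siRAD21 was 1 commercial pool of siRNAs and siCtrl was directed against Renilla luciferase, which human cells lack, so effects of the pool on transcripts other than RAD21 cannot be told apart from those of RAD21 loss. For comparison, 2 siRAD21 24h and 2 siCtrl 24h libraries received ethanol in place of OHT, and 2 siRAD21 OHT 48h and 3 siCtrl OHT 48h libraries were collected a day later; none of these 9 libraries is shared with the 4. The values are eRPKM, exonic reads scaled to gene length and library depth, and 14993 of the 23399 genes in the data had a mean of at least 1 eRPKM over the 18 libraries and were tested.

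RAD21 is the subunit that closes the ring of cohesin, the complex that holds sister chromatids together from S phase to mitosis and, with the DNA-binding protein CTCF, forms chromatin loops between promoters, enhancers and domain borders. SMC1A and SMC3 form the arms of the ring, STAG1 or STAG2 binds RAD21, NIPBL loads the complex on chromatin and WAPL releases it. Myc is a transcription factor that with its partner MAX binds E-boxes, of which CACGTG is the best known, near genes for ribosome production, nucleotide supply and the cell cycle.

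Read depth in the 4 libraries was between 11061832 and 12304530, recovered from the values, and replicates of a group correlated with Pearson's r of 0.988 to 0.989 on log2 values across genes. The paper states that 2 biological replicates were sequenced, and the labels do not say whether the 2 libraries of a group came from separate cultures. The p-values thus measure only the spread between these libraries. As these are bulk libraries, a change in the share of cells in a state and a change of RNA per cell cannot be told apart. Of 9 mesenchymal and osteoblast lineage markers, VIM had 106 and 113 eRPKM in siCtrl OHT cells and COL1A1 26.0 and 27.4, and SPP1 10.7 and 10.3. Of the others, RUNX2 had 3.53 and 3.08 and ALPL 2.55 and 3.05 eRPKM in siCtrl OHT cells. IBSP was at 0 in all 4 libraries and COL1A2, SP7 and BGLAP had 0.597 eRPKM at most. Of blood cell markers, PTPRC was at 0.148 eRPKM at most and CD3E at 0 in 3 of the 4 libraries, and the summed level of the endothelial markers PECAM1, CDH5 and VWF was 0.820 to 0.898 eRPKM in siCtrl OHT and 0.926 to 1.14 in siRAD21 OHT libraries. Neuronal (SYP, TUBB3, RBFOX3) and epithelial (EPCAM, CDH1, KRT5, KRT14) markers were all tested and none was called. Some were well expressed in siCtrl OHT cells, SYP at 15.7 and 16.1, TUBB3 at 19.8 and 22.0 and EPCAM at 8.70 and 9.53 eRPKM. SYP and TUBB3 were thus above SPP1, while RBFOX3, CDH1, KRT5 and KRT14 had 3.26 eRPKM at most in these cells.

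RAD21 itself checked the labels. It had 66.4 and 71.0 eRPKM in the 2 siCtrl OHT libraries and 15.8 and 15.5 in the 2 siRAD21 OHT libraries, which is 68.7 ± 3.27 against 15.7 ± 0.212 (SD, n = 2). The groups lay far apart, and the log2 fold change was -2.09 ± 0.05 (SE; limma, Benjamini-Hochberg adjusted p = 1.31e-11). Silencing reached -1.92 ± 0.05 at 24 h without OHT and -3.02 ± 0.05 at 48 h under OHT. The difference of -0.93 between 48 and 24 h under OHT passed the test (limma adjusted p = 3.08e-06), so the cells described here retained more RAD21 transcript than those collected a day later. The exons of RAD21 overlap UTP23, RAD21-AS1 and MIR3610 by up to 896 bases, and the libraries do not separate strands.

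The other parts of the complex moved little. SMC1A, the partner of SMC3 in the ring, had 21.0 and 18.6 eRPKM in siCtrl OHT and 30.6 and 28.3 in siRAD21 OHT libraries, which do not overlap, and rose by 0.56 ± 0.06 on the log2 scale (limma adjusted p = 1.17e-05). Without siCtrl OHT replicate 2 its log2 fold change was 0.48, below the 0.5 required for a call. SMC3 had 48.0 and 46.6 against 47.4 and 48.5 eRPKM, and STAG1, STAG2 and NIPBL had log2 fold changes of 0.04, -0.01 and -0.02, of which those of SMC3, STAG2 and NIPBL changed sign when a library was left out. WAPL, listed under its older symbol WAPAL, had 34.7 and 33.5 eRPKM against 28.4 and 27.3, and CTCF 38.8 and 34.9 against 29.5 and 30.4. Each had a log2 fold change of -0.29, with limma adjusted p-values of 2.68e-04 and 7.22e-04, past the p threshold but not the fold threshold. Among the 13 loaders and regulators of cohesin no gene was called, where 3.74% of all genes were called higher and 2.73% lower. Past the p threshold alone 1 of them was higher and 3 lower (30.8%, against 20.0% of all genes). Of the 7 cohesin subunits tested RAD21 and SMC1A were the calls, 14.3% in each direction.

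**Figure D1:**
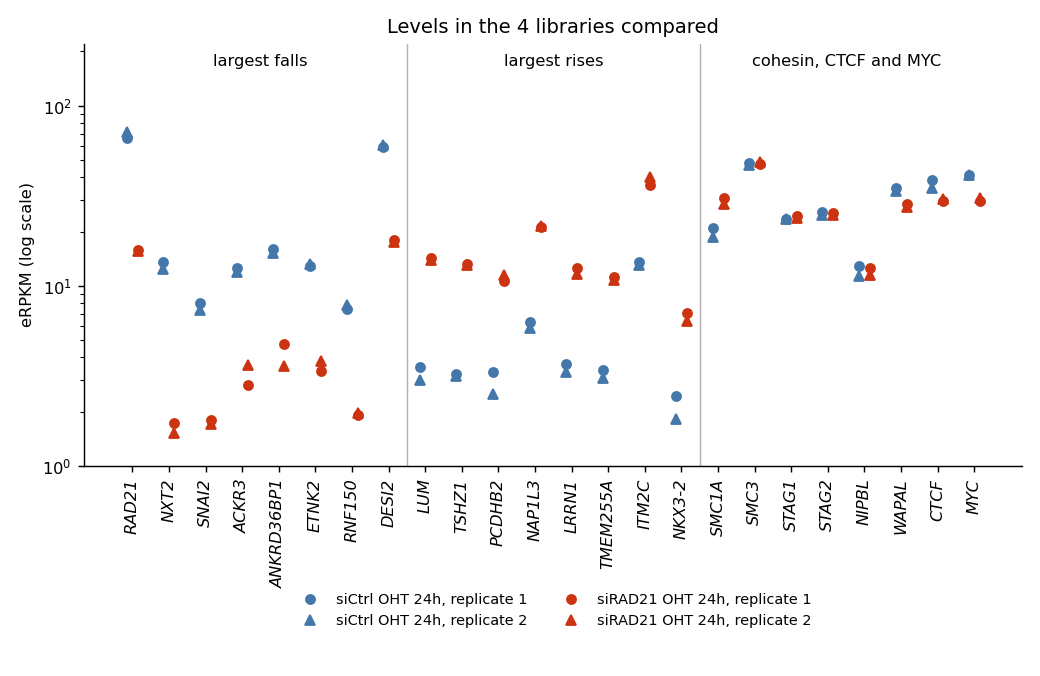
eRPKM on a log axis of the genes with the largest falls and rises and of cohesin genes, CTCF and MYC in the 4 libraries, 1 point per library, with siCtrl OHT and siRAD21 OHT at 24 h in different colours. The siCtrl OHT and siRAD21 OHT points of the rising and falling genes do not overlap, as the rule that chose them required. Those of SMC3, STAG1, STAG2 and NIPBL lie on or next to each other.

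Under OHT at 24 h, 970 of 14993 genes (6.47%) were called, that is, they had an adjusted p under 0.05 together with a log2 fold change above 0.5 or below -0.5. Of these, 560 rose (3.74%) and 410 fell (2.73%), and after quantile normalization 467 rose and 439 fell. An adjusted p below 0.05 without the fold threshold was reached by 3000 genes (20.0%), 1585 higher (10.6%) and 1415 lower (9.44%). Most changes were small: the SD of the log2 fold change over all genes was 0.309, its median 0.0106, and 69 called genes rose and 59 fell by more than 2-fold. Genes that rose were expressed at a low level, with a median of 3.73 eRPKM in siCtrl OHT cells, against 10.84 for genes that fell and 13.03 for all genes tested. Of the called genes, 511 risers and 373 fallers were protein-coding, and 22 and 19 were lncRNA genes. The libraries of the 2 groups did not overlap in 30.5% of genes in the higher and 27.2% in the lower direction, so a gap between the groups alone does not set a gene apart.

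The largest falls after RAD21 silencing were chosen only among called genes whose libraries do not overlap. They comprised RAD21 and genes with varied roles. NXT2 (chrX:108779010-108787927), a cofactor of nuclear mRNA export, had 13.6 and 12.4 eRPKM in siCtrl OHT and 1.74 and 1.52 in siRAD21 OHT libraries, a log2 fold change of -2.66 ± 0.12 (limma adjusted p = 9.34e-09). SNAI2 encodes SLUG, a transcriptional repressor that promotes epithelial-mesenchymal transition, and fell from 7.98 and 7.31 to 1.79 and 1.71 eRPKM (-1.85). ACKR3 (chr2:237476430-237490997), an atypical receptor for the chemokine CXCL12, fell from 12.3 ± 0.455 to 3.20 ± 0.573 (SD, n = 2), by -1.80 on the log2 scale. In none of these genes did the groups come near each other. ETNK2, an ethanolamine kinase, had 12.9 and 13.3 against 3.35 and 3.81 eRPKM, and RNF150, which encodes a RING finger protein, 7.44 and 7.81 against 1.93 and 1.97. DESI2 (chr1:244816405-244872335), which encodes a deSUMOylating peptidase, was the most abundant of them after RAD21 and fell from 59.3 and 60.2 to 17.9 and 17.4 eRPKM, a log2 fold change of -1.73 ± 0.06 (limma adjusted p = 3.02e-10). NXT2 and DESI2 had nearly the same log2 fold changes without OHT, -2.53 and -1.79, and at 48 h, -2.49 and -1.80. ANKRD36BP1, a pseudogene whose 1779 bases of overlap with SFT2D2 leave its reads uncertain, and the microRNA genes MIR5685 and MIR614 completed the list. MIR5685 rested on 8 and 2 reads against 0 and 1, and MIR614, inside GPRC5A, on 14 and 18 against 4 and 2.

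The largest rises, chosen under the same condition of no overlap, were those of LUM and TSHZ1. LUM (chr12:91496406-91505271), which encodes the matrix proteoglycan lumican, had 3.53 and 3.01 eRPKM in siCtrl OHT and 14.2 and 13.9 in siRAD21 OHT libraries, a log2 fold change of 1.95 ± 0.15 (limma adjusted p = 9.3e-07). TSHZ1, which encodes a zinc finger homeobox protein, rose from 3.24 and 3.14 to 13.2 and 13.0 eRPKM (1.88 ± 0.11, limma adjusted p = 7.38e-08). In both genes every siRAD21 OHT library was far above every siCtrl OHT library. NAP1L3, a member of the nucleosome assembly protein family, rose from 6.28 and 5.81 to 21.3 and 21.5 eRPKM, and ITM2C, a transmembrane protein that binds the amyloid precursor protein, from 13.6 and 13.1 to 36.2 and 40.3. TMEM255A, which encodes a transmembrane protein, rose by 1.61 and NKX3-2, a homeobox gene of cartilage and spleen development, by 1.47 on the log2 scale. LRRN1, which encodes a neuronal leucine-rich repeat protein, had 3.68 and 3.33 against 12.6 and 11.6 eRPKM (1.65 ± 0.06), while at 48 h under OHT its log2 fold change was 0.49 and the difference of -1.16 passed the test (limma adjusted p = 3.08e-06). The protocadherin gene PCDHB2 is described with its cluster below. MIR3167 and MIR425 also met the rule, on 5 and 1 reads against 7 and 9, and on 2 and 2 against 5 and 8, and each lost its call when 1 of the libraries was left out, with log2 fold changes of 0.73 to 1.83 and 1.16 to 1.55.

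Genes called in the same direction lay next to each other more often than genes in general. Of the 540 risers with a position and an adjacent tested gene that shared no exon base with them, 65 (12%) had such a neighbour that also rose. Among all 14232 genes of this kind the share was 6.79%. Of the 400 fallers of this kind, 57 (14.2%) had a falling neighbour, against 5.02%. Genes listed as sharing exon bases were not counted as neighbours in these shares. Reads shared in other ways may still contribute, to an extent that was not tested. Among runs of adjacent genes, in which overlapping genes were kept, the longest was at the HOXA cluster. In this array of homeobox genes on chromosome 7, which sets position along the body axis, the 5 adjacent genes HOXA3 to HOXA7 rose. HOXA4 (chr7:27168126-27170399) had 1.74 and 1.71 eRPKM in siCtrl OHT and 3.33 and 4.13 in siRAD21 OHT libraries, and HOXA5 (chr7:27180671-27183300) 2.21 and 2.00 against 4.57 and 4.47. Their log2 fold changes were 0.92 ± 0.16 and 0.95 ± 0.16, with limma adjusted p-values of 9.24e-04 and 7.30e-04, and they kept the call without each of the 4 libraries.

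The calls at the other 3 HOXA genes were less firm. HOXA3 rose by 0.73, HOXA6 by 0.92 and HOXA7 by 0.52 on the log2 scale, with siCtrl OHT values of 1.43 and 0.852, 3.24 and 2.50, and 1.25 and 1.56 eRPKM. HOXA3 and HOXA6 lost the call without siCtrl OHT replicate 2 (0.47 and 0.76) and without either siRAD21 OHT library, and HOXA7 without any of the 4 (0.41 to 0.64). All 5 except HOXA5 share exonic sequence with the lncRNA HOXA-AS3, by 31 bases for HOXA4 and 1507 for HOXA7, and reads were not separated by strand. HOXA2, HOXA9, HOXA10, HOXA11 and HOXA13, which lie on either side, had log2 fold changes of -0.11 to 0.09 and were not called. Without OHT, the log2 fold changes of HOXA3 to HOXA7 were 1.03, 0.65, 0.70, 0.65 and 0.07, and at 48 h under OHT 0.71, 0.40, 0.65, 0.11 and 0.62.

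The clustered protocadherins on chromosome 5 are adhesion genes of which single cells use a few through promoters that CTCF and cohesin bring to distant enhancers. Of the 52 in the data, 21 were tested; 4 rose and none fell, against 3.74% and 2.73% of all genes, and the median log2 fold change was 0.225. PCDHB2 (chr5:140474191-140478287) had 3.31 and 2.52 eRPKM in siCtrl OHT and 10.7 and 11.5 in siRAD21 OHT libraries, a log2 fold change of 1.77 ± 0.15 (limma adjusted p = 2.18e-06). PCDHA12 had 1.39 and 1.01 against 3.87 and 3.42 eRPKM, a log2 fold change of 1.29 ± 0.17 (limma adjusted p = 1.04e-04), and neither gene's groups overlap. PCDHA4 (0.56) and PCDHB11 (0.64) were called with all libraries but lost the call when 1 was left out, PCDHA4 without siCtrl OHT replicate 2 (0.45) or siRAD21 OHT replicate 1 (0.49) and PCDHB11 without any of the 4 (0.56 to 0.71). The PCDHA genes share their 3′ exons, so the origin of reads there is uncertain, whereas the PCDHB genes overlap no other gene. PCDHB2 and PCDHA12 were higher in all 3 comparisons, with log2 fold changes of 1.69 and 1.44 without OHT and 1.61 and 1.51 at 48 h.

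Some other members of the cluster changed in effect between the times. PCDHB5, the protocadherin of the highest level, had 18.9 and 20.2 eRPKM against 22.3 and 23.5 at 24 h under OHT, which is 0.23 on the log2 scale and not a call. At 48 h under OHT it had 17.7, 16.8 and 16.7 eRPKM in siCtrl OHT and 10.9 and 10.9 in siRAD21 OHT libraries (-0.62), and the difference of -0.85 between the times was called (limma adjusted p = 1.63e-05). PCDHB8 had 6.63 and 5.75 against 5.33 and 5.27 at 24 h and a log2 fold change of -1.33 at 48 h. Of the 21 genes, 3 rose and 9 fell at 48 h (of all genes 8.47% rose and 7.74% fell), with a median log2 fold change of -0.186. In the difference between 48 and 24 h 6 were called lower, against 3.74% of all genes. The promoters of PCDHB2 and PCDHA12, which rose at each time, and of PCDHB8, which fell at 48 h, are shown because the genes lie in the same cluster and moved apart. They run from 250 bases before to 50 after the start site in RefSeq (GRCh38.p14, + strand), at chr5:141094365-141094664, chr5:140875058-140875357 and chr5:141177540-141177839, and the letters TGNCGCT, in which N stands for any base, are in capitals where they occur:
PCDHB2: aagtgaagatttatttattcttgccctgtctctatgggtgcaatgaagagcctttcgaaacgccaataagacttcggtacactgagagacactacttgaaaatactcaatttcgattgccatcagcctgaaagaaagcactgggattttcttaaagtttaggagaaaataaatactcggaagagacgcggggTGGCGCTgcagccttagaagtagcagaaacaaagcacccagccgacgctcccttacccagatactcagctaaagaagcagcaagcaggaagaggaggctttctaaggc
PCDHA12: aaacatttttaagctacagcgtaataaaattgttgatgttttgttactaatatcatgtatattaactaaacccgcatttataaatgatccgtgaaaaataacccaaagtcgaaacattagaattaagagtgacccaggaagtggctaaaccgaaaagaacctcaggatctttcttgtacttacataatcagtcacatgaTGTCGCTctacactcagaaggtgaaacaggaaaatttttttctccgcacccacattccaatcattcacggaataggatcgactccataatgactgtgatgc
PCDHB8: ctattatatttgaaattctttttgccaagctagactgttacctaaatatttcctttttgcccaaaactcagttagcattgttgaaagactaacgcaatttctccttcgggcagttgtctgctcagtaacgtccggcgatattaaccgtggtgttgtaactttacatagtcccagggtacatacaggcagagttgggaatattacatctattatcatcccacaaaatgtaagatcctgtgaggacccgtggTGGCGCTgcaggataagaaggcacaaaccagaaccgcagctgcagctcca
The motif, searched on both strands and noticed after the sequences were seen, was in the promoters of 18 of 19 tested protocadherins with a promoter in the table (94.7%), against 15.5% of all 10435 tested genes with one. It was thus shared by the protocadherins that rose and by those that did not.

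**Figure D2:**
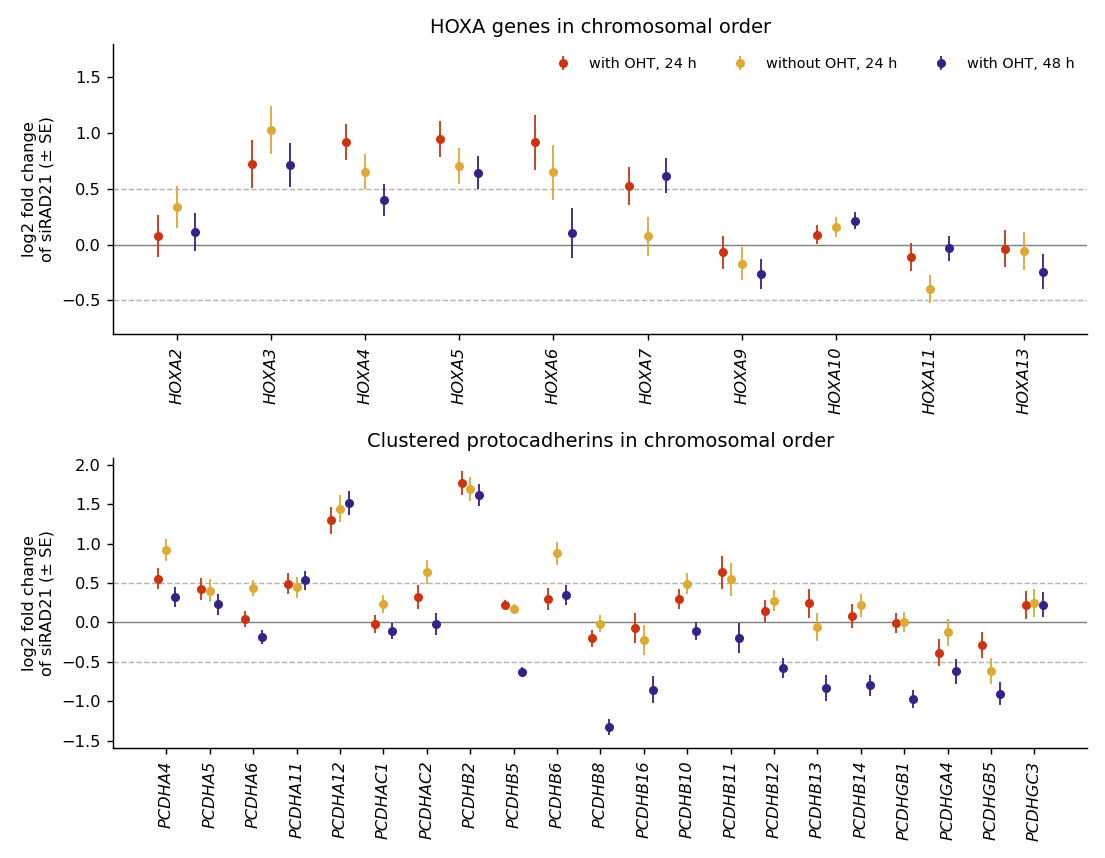
log2 fold change of siRAD21 against siCtrl with its SE for the HOXA genes named in the text and the clustered protocadherins in chromosomal order, at 24 h under OHT, at 24 h without OHT and at 48 h under OHT. HOXA3 to HOXA7 lie between 0.52 and 0.95 at 24 h under OHT, and PCDHB2 and PCDHA12 stand above the other protocadherins at each time.

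The p53 target genes were the list with the largest share of members past the adjusted p threshold in the same direction. p53 is a transcription factor activated by DNA damage and other stress, and its targets arrest the cell cycle or promote cell death. Of 32 p53 target genes tested, 6 rose and none fell (18.8% against 3.74% of all genes), 23 were higher and 1 lower at an adjusted p below 0.05 (against 10.6% and 9.44% of all genes), and the median log2 fold change was 0.353, between 0.318 and 0.404 in the alternative analyses. TP53INP1, which promotes p53 activity and autophagy, had 2.21 and 2.23 eRPKM in siCtrl OHT and 7.18 and 6.64 in siRAD21 OHT libraries (1.44 ± 0.09, limma adjusted p = 2.14e-07). BBC3, which encodes the pro-apoptotic protein PUMA, rose from 16.2 and 16.9 to 27.3 and 31.6 eRPKM (0.81), and SUSD6 from 9.12 and 8.78 to 16.6 and 15.1 (0.79). The groups of these genes do not overlap. GDF15, a stress-induced cytokine, rose by 0.76 but lost the call without siCtrl OHT replicate 1 (0.61) or siRAD21 OHT replicate 2 (0.60). The death receptor FAS and the antiproliferative gene BTG2 were the remaining calls, at 0.62 and 0.55. CDKN1A, which encodes the CDK inhibitor p21, had 66.6 and 70.3 against 87.0 and 90.7 eRPKM, a log2 fold change of 0.37 that passed the p but not the fold threshold (limma adjusted p = 2.06e-04).

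MDM2, which encodes the ubiquitin ligase that degrades p53, went the other way from most of the list. It had 42.5 and 43.3 eRPKM in siCtrl OHT and 35.2 and 32.8 in siRAD21 OHT libraries, a log2 fold change of -0.33 with a limma adjusted p of 3.85e-05, below the fold threshold. Its log2 fold change was also -0.33 without OHT and 0.19 at 48 h under OHT, and the difference of 0.52 between the times passed the test (limma adjusted p = 4.18e-05). Over the list, the median log2 fold change was 0.297 without OHT, where 9 genes were called, all higher (against 5.83% of all genes). It was 0.508 at 48 h under OHT, where 16 were called, all higher (against 8.47% of all genes). In the test of OHT against no OHT at 24 h, 15 of the 32 differences were above 0 and the median was -0.005, so the shift of the list had about the same size with and without OHT.

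Lists of proliferation genes, in contrast, had medians near 0 at 24 h under OHT. Of 49 DNA replication genes none was called, against 3.74% higher and 2.73% lower of all genes, and their median log2 fold change was 0.0137. LIG1, the ligase that joins Okazaki fragments, had 27.2 and 28.6 against 34.1 and 36.0 eRPKM (0.32), and the helicase subunit MCM6 31.9 and 30.7 against 36.0 and 37.4 (0.22), while GINS1, a subunit of the replicative helicase, had a log2 fold change of -0.27. These 3 were the members past the p threshold (6.12%, against 20.0% of all genes), none of them past the fold threshold. Of 56 G2/M and mitosis genes none was called (median -0.0028). Of 29 G1/S and nucleotide supply genes 1 was called (3.45%, near the 3.74% of all genes). It was E2F2, a transcription factor of S phase entry, which rose from 25.6 and 26.2 to 40.5 and 38.4 eRPKM (0.60 ± 0.07, limma adjusted p = 4.14e-05). Of 51 replication stress and DNA damage response genes 1 fell (1.96%, against 2.73%). This was MUS81, a subunit of an endonuclease that cuts stalled forks, from 25.6 and 27.4 to 16.7 and 19.0 eRPKM (-0.56). MUS81 overlaps CFL1 and EFEMP2 and lost the call without siRAD21 OHT replicate 1 (-0.47). Past the p threshold alone were 1.79% of the G2/M, 17.2% of the G1/S and 17.6% of the DNA damage response genes, against 20.0% of all genes. At 48 h under OHT the medians of the 4 lists were -0.173, -0.175, -0.184 and -0.184.

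Myc and its targets were examined next, since all 4 libraries had active MycER. MYC had 41.0 and 41.2 eRPKM in siCtrl OHT and 29.4 and 30.6 in siRAD21 OHT libraries, a log2 fold change of -0.45 ± 0.07 (limma adjusted p = 3.77e-04), past the p but not the fold threshold. Whether reads of the MycER transcript are counted as MYC was not tested. Of 11 tested genes of the MYC, MAX and MXD network the call was MXD4, a repressor that competes with Myc for MAX, which rose from 4.50 ± 0.430 to 7.22 ± 0.317 eRPKM (SD, n = 2; 0.63 ± 0.08, limma adjusted p = 5.39e-05). MXD4 had a log2 fold change of 1.04 without OHT and 2.02 at 48 h under OHT. The difference of 1.40 between the times was called. Of the 11 network genes, 3 were higher and 2 lower past the p threshold alone (45.5%, against 20.0% of all genes). Of 57 Myc target genes tested 1 rose (1.75%, against 3.74% of all genes) and none fell (against 2.73%). TFRC, the transferrin receptor, rose from 49.6 and 50.8 to 82.6 and 82.7 eRPKM (0.71 ± 0.05, limma adjusted p = 6.82e-07). Abundant genes are compressed in these data because duplicate reads were removed, and the eRPKM of a library cannot exceed 158 to 207.

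The Myc target genes had a lower median log2 fold change without OHT than with it. It was -0.154 without OHT, with 51 of 57 genes below 0, and -0.0103 under OHT, with 31 below 0. The difference between these effects was above 0 in 54 of the 57 genes (94.7%), against 51.3% of all genes tested, with a median of 0.143 that ranged from 0.0933 under quantile normalization to 0.188 without siCtrl 24h replicate 2. Other lists had like shares above 0, with 91.8% of DNA replication, 91.3% of cholesterol synthesis, 89.3% of G2/M, 86.2% of G1/S and 83.0% of replication-dependent histone genes. Among lists that leaned the other way were NF-kB (18.2%), YAP/TAZ (22.7%), matrix, integrin and laminin genes (32%) and collagens (34.8%). The median difference over all genes was 0.00447, and 0.0186 among genes with a mean of at least 5 eRPKM. No single gene reached an adjusted p of 0.05 in this test. CDK4, a cyclin-dependent kinase of G1, had 65.6 and 66.8 against 66.0 and 70.3 eRPKM under OHT and 71.1 and 63.5 against 60.4 and 60.2 without OHT, and NCL, which encodes nucleolin, had log2 fold changes of 0.02 and -0.16; both were chosen after their values were seen. Of 44 promoters of the list in the RefSeq table, 17 (38.6%) hold the E-box CACGTG, against 9.97% of all tested genes. Of the other Myc pathway promoters examined singly, that of MXD4 held 1 match and those of NCL, ODC1 and TFRC held 0. The promoter of CDK4 (GRCh38.p14, chr12:57752261-57752560, - strand) is shown, with its 3 matches in capitals, because it carries the most matches among the Myc pathway promoters examined:
CDK4: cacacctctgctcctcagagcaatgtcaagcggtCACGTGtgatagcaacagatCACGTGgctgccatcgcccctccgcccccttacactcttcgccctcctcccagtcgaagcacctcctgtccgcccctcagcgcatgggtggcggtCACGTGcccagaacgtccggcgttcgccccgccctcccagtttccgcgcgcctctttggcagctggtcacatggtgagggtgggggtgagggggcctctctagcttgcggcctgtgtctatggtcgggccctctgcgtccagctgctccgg
Among genes that rose after RAD21 silencing under OHT the motif was in 8.15% of 368 promoters, and among genes that fell in 8.30% of 289, below the share in all tested genes.

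Signalling genes were examined by list. Of 32 BMP and TGF-beta response genes, 3 rose and 6 fell (9.38% and 18.8%, against 3.74% and 2.73% of all genes), and 5 were higher and 11 lower at an adjusted p below 0.05, which 10.6% and 9.44% of all genes were. FST, which encodes the activin antagonist follistatin, rose from 19.6 and 19.2 to 44.4 and 46.2 eRPKM (1.20 ± 0.09, limma adjusted p = 4.34e-07). INHBA, which encodes the activin A subunit, fell from 36.4 and 32.8 to 15.1 and 14.2 eRPKM (-1.21 ± 0.08, limma adjusted p = 2.27e-07), so the antagonist and its ligand moved in opposite directions. TGFBI, a matrix protein induced by TGF-beta, fell by 1.17 and the ligand TGFB2 by 0.91 on the log2 scale. TGFB2 (-1.03) and INHBA (-0.97) were called lower in the difference between 48 and 24 h. INHBA overlaps INHBA-AS1 and TGFB2 overlaps TGFB2-AS1, which these libraries cannot separate from them.

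Of 22 NF-kB cytokine and feedback genes, 5 rose (22.7%, against 3.74% of all genes) and 1 fell (4.55%, against 2.73%). BIRC3, an inhibitor of apoptosis, had 9.47 and 7.73 against 16.7 and 15.2 eRPKM (0.86), and the monocyte chemokine CCL2 14.0 and 16.0 against 22.8 and 26.7 (0.70), with no overlap of the groups. TNFAIP2 rose by 0.70. TNFAIP6, which encodes a hyaluronan-binding protein, fell from 1.88 and 1.04 to 0.181 and 0.127 eRPKM, and its log2 fold change was -1.55 ± 0.25. CCL2 had a log2 fold change of -0.30 at 48 h, and the difference of -1.01 was called (limma adjusted p = 3.93e-04).

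Of 32 immediate early and MAPK feedback genes, 3 rose (9.38%, against 3.74% of all genes) and 4 fell (12.5%, against 2.73%). KLF2, a zinc finger transcription factor, had 2.02 and 2.06 against 5.01 and 4.55 eRPKM (1.05), and the orphan nuclear receptor gene NR4A2 0.552 and 0.765 against 1.66 and 1.79 (0.95). FOSL2, an AP-1 subunit, fell from 51.4 and 52.9 to 31.8 and 30.6 eRPKM (-0.73 ± 0.05, limma adjusted p = 3.05e-07), and PHLDA1 fell by 0.74. Of 22 YAP/TAZ factors and targets, 3 rose (13.6%, against 3.74% of all genes) and 2 fell (9.09%, against 2.73%). Past the p threshold alone 6 were higher and 7 lower (59.1%, against 20.0% of all genes). YAP1, the transcriptional coactivator of the Hippo pathway, had 20.9 and 18.7 against 30.4 and 29.4 eRPKM (0.58). MYOF (0.55), which encodes the membrane protein myoferlin, lost the call without siRAD21 OHT replicate 1 (0.49), and F3, the tissue factor gene (-0.61), without any of the 4 libraries (-0.64 to -0.59).

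In metabolic, matrix and the remaining lists the shares called were mostly near those of all genes, 3.74% higher and 2.73% lower. They were 4.35% higher and 4.35% lower for cholesterol synthesis, and 4.0% and 2.0% for matrix, integrin and laminin genes. Collagens had 4.35% higher, ATF4 genes 3.23%, and clock and BCL2 family genes 6.25% each. Lower calls were 14.3% of the IGF pathway and 3.57% of interferon-stimulated genes. Of 23 genes of cholesterol synthesis and the LDL receptor, INSIG1, which retains SREBP in the endoplasmic reticulum, fell from 31.1 ± 0.405 to 14.9 ± 0.0615 eRPKM (SD, n = 2; -1.03 ± 0.06, limma adjusted p = 8.08e-08) and PMVK, phosphomevalonate kinase, rose from 11.5 and 11.8 to 18.4 and 18.2 (0.63). IRS1, the insulin receptor substrate, was the single call of 7 IGF pathway genes, with 24.1 and 24.6 against 16.4 and 15.6 eRPKM (-0.59). Of 50 matrix, integrin and laminin genes LUM and the collagen crosslinker LOX (0.67) rose and HAPLN1, a link protein of hyaluronan (-0.57), fell, and of 23 collagens COL13A1 rose (0.62). Of 31 ATF4 and unfolded protein response genes ALDH1L2 and of 16 clock genes PER2 rose, each with a loss of the call when some single libraries were left out, and of 16 BCL2 family genes the call was BBC3. Of 47 replication-dependent histone genes 4 rose (8.51%, against 3.74% of all genes), of which HIST1H3C, HIST1H1T and HIST1H2AK lost the call when some libraries were left out and HIST1H2BB did not. Of 28 interferon-stimulated genes GBP2 fell, also with a loss of the call in 3 of the 4 omissions, and no CDK inhibitor (7 tested, median 0.291) or osteoblast lineage gene (8 tested) was called.

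The effect of RAD21 silencing under OHT was set beside that without OHT at the same time, with which it shares no library, to ask whether active MycER altered it. Without OHT 1264 genes (8.43%) were called, 874 higher (5.83%) and 390 lower (2.60%), and 25.8% had an adjusted p below 0.05 (of the calls 69.1% higher, or 55.5% after quantile normalization). Of the 560 genes that rose under OHT, 434 (77.5%, and 49.7% of the 874) rose without OHT too, and of the 410 that fell, 262 (63.9%, and 67.2% of the 390) fell without OHT; no gene was called in opposite directions. Across the 14993 genes, which are not independent, the log2 fold changes had a Pearson's r of 0.656. For the 274 genes called under OHT and not without it, 259 had the same sign without OHT and 131 also an adjusted p below 0.05, and the median size was 0.593 under OHT and 0.377 without. In the test of the difference itself by limma, no gene of 14993 (0.0%) was called; 906 had an unadjusted p below 0.05, and the lowest adjusted p was 0.107. The count was 0 to 19 in the other analyses, 19 of them with voom on reads recovered from the values. The siRAD21 24h libraries, which both comparisons without OHT use, differed by little more than sampling noise (chi-square per gene 1.05). They were treated as separate samples throughout.

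A few genes came closest to a difference, and 15 were called in at least 2 of the other analyses; those named here were chosen after their values were seen. TGFBI had 42.3 and 38.0 eRPKM in siCtrl and 26.8 and 26.1 in siRAD21 cells without OHT, and 30.1 and 32.0 against 12.7 and 14.4 with it. Its log2 fold change was -0.59 without OHT and -1.17 with it, a difference of -0.58 (limma adjusted p = 0.107). SCEL, which encodes sciellin, had 1.36 and 1.66 against 5.97 and 7.2 eRPKM without OHT and 1.94 and 1.84 against 3.89 and 3.31 with it, so the rise was smaller under OHT by 1.04 on the log2 scale. DRD1, a dopamine receptor gene, had 7.15 and 7.81 eRPKM in siCtrl cells without OHT and 2.31 and 2.27 in siCtrl cells with it, and was between 0.235 and 0.322 in all siRAD21 libraries at 24 h. Its log2 fold changes of -3.41 and -1.80 therefore start from different levels and end at the same one. SFRP1, a secreted inhibitor of Wnt signalling, had 14.1 and 13.6 against 4.15 and 4.83 eRPKM without OHT and 29.6 and 28.0 against 15.4 and 15.3 with it, which is -1.53 and -0.88 on the log2 scale. SLC12A8, a member of the cation-chloride cotransporter family, had log2 fold changes of -0.21 and -0.93.

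**Figure D3:**
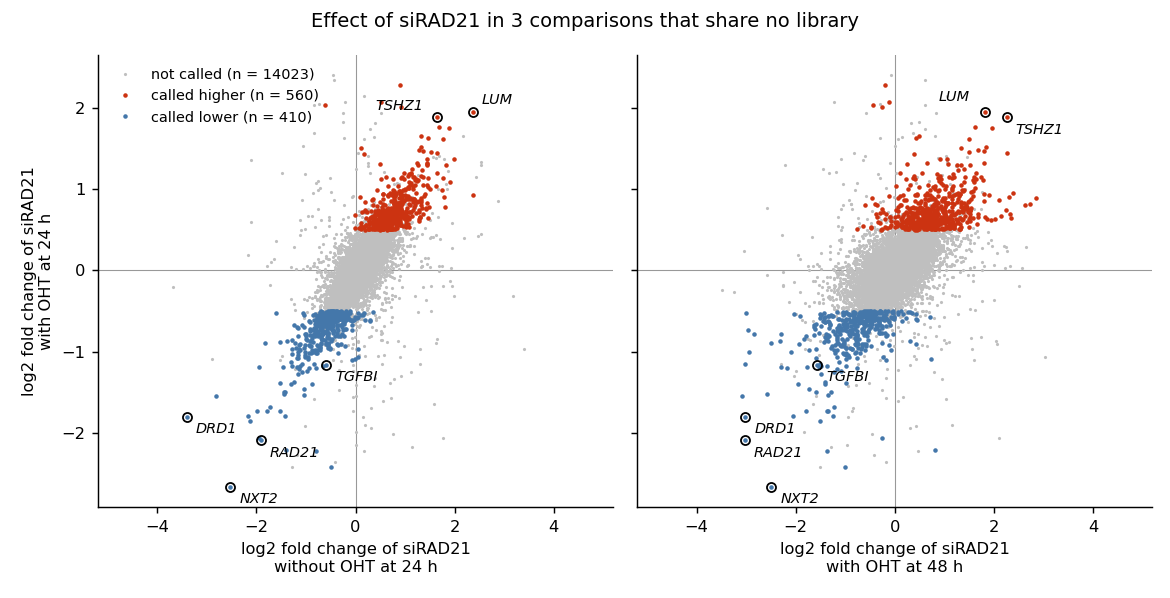
Each point is 1 of the 14993 genes, with the log2 fold change of siRAD21 against siCtrl at 24 h under OHT on the y axis. The x axes hold that at 24 h without OHT or at 48 h under OHT. The r is 0.656 in the comparison with 24 h without OHT and 0.558 in that with 48 h, and RAD21 and NXT2 are low on every axis.

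The effect grew with time under OHT. At 48 h 2431 genes (16.2%) were called, 1270 higher (8.47%) and 1161 lower (7.74%), with libraries other than those at 24 h, and 45.2% of genes had an adjusted p below 0.05. The siRAD21 OHT 48h libraries differed by no more than sampling noise and may be 1 library; with their mean as 1 sample 2248 genes were called at 48 h and 651 in the difference between 48 and 24 h. Of the 560 genes that rose at 24 h, 392 (70.0%, and 30.9% of the 1270) rose at 48 h, and of the 410 that fell, 295 (72.0%, and 25.4% of the 1161) fell; 3 of the risers and 1 of the fallers were called in the other direction. The difference of the effects at 48 and 24 h was called for 968 genes (6.46%), 408 higher (2.72%) and 560 lower (3.74%; 7.04% at an adjusted p below 0.05 alone), and 207 of these were among the 970 called at 24 h. As RAD21 itself was lower at 48 than at 24 h, time and the depth of silencing cannot be told apart in this comparison. Called in the same direction in all 3 comparisons were 546 genes, 329 higher and 217 lower.

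Several of the strongest changes at 48 h had no counterpart at 24 h. IGFBP5, which encodes an IGF binding protein, had 8.68 and 7.27 eRPKM in siCtrl OHT and 6.85 and 6.40 in siRAD21 OHT libraries at 24 h, and 16.2, 12.1 and 14.4 against 0.747 and 0.865 at 48 h (difference -3.24, limma adjusted p = 1.72e-07). The adhesion molecule gene L1CAM had 8.77 ± 0.335 against 8.44 ± 0.304 eRPKM (SD, n = 2) at 24 h and 24.97, 14.2 and 15.2 against 2.35 and 2.72 at 48 h. The guidance gene SEMA3A was called at both times, with 2.60 and 2.08 against 1.29 and 1.12 eRPKM at 24 h (-0.73) and a log2 fold change of -2.97 at 48 h. MMP3, which encodes the matrix protease stromelysin, had 32.8 and 33.2 against 22.3 and 24.7 eRPKM at 24 h (-0.48, not past the fold threshold) and 16.3, 19.3 and 16.9 against 51.1 and 50.9 at 48 h, with a difference of 2.00. The interferon-stimulated gene IFIT2 was below 0.7 eRPKM in all 4 libraries at 24 h and had 6.85 and 8.22 eRPKM in the siRAD21 OHT libraries at 48 h.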

How the data were processed

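RNA was depleted of ribosomal RNA, and libraries were made with a kit that does not keep strand. The authors trimmed reads, aligned them to hg19 with TopHat2 (2.0.8), removed PCR duplicates, counted exonic reads with featureCounts (1.4.5) per the submitters' processing notes, and deposited RPKM over exons (eRPKM) for 23399 genes. The gene annotation used for counting was not given in the sources used here. The authors' own calls came from DESeq2. All 18 libraries could be assigned to the 8 groups from their labels.

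From these values, log2(eRPKM + 0.5) was fitted in R 4.3.3 with limma 3.58.1 over all 18 libraries, with a mean for each of the 8 groups and a variance trend. Tests were two-sided and covered the genes that averaged 1 eRPKM or more, and p-values were adjusted over the 14993 genes by Benjamini-Hochberg. Fold changes are on the log2(eRPKM + 0.5) scale, which understates changes of low genes. Whole reads were recovered for 23398 of 23399 genes (tolerance 0.001 reads), which gave the depths of 9647501 to 12678599 reads per library. Duplicate removal limits the value an abundant gene can reach, so its fold change is compressed. The siRAD21 OHT 48h libraries differed by no more than sampling noise (chi-square per gene 0.984, against 1.59 and 1.95 for the groups at 24 h under OHT), and may be 1 library. Each is given, without an SD, and the counts with their mean as 1 sample are in the closing section. The siRAD21 24h libraries, without OHT, differed by little more than sampling noise (chi-square per gene 1.05). They may likewise be 1 library, but their mean was not tried as 1 sample. The paper calls its RNA-seq replicates biological, and whether this holds for these libraries was not tested. No clear pairing by replicate number was seen, as r of the replicate differences of the groups compared was 0.053. Between other groups at 24 h it was -0.169 to 0.071. With 1 replicate difference per group, these values cannot exclude that replicates were handled together.

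Gene positions came from GENCODE on GRCh37 (22376 symbols matched, 1222 of them through older symbols) and promoters from RefSeq on GRCh38.p14; 10435 tested genes had one. Scripts ran in Python 3.11.15 with matplotlib 3.10.9, numpy 2.4.6 and pandas 2.3.3, and were tested on simulated data. The members, gene lists and tests were chosen with earlier results of these data known. Named genes are RAD21, MYC, cohesin genes and CTCF, the 10 largest rises and falls among called genes with at least 5 eRPKM in a group and libraries that do not overlap, at most 4 called members of each list (or 2 with the smallest p), and the 5 largest called differences in each direction between 48 and 24 h; the other HOXA, p53, protocadherin, MYC network and cohesin list members were added as whole lists, apart from a few not reported here. MDM2, FAS, BTG2, PCDHB5, PCDHB8, MXD1, MYCL and the genes named for OHT were taken from these after their values were seen.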

Additional observations from a re-analysis of the deposited data

Results flagged for a closer look

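The effect of siRAD21 under OHT differed between 48 and 24 h, by limma's test of the difference, for 968 genes. Of the 175 genes followed by name or as list members, 37 were among them, 13 with a more positive and 24 with a more negative log2 fold change at 48 h. The values in parentheses are differences of log2 fold changes, 48 h less 24 h. RAD21 was itself lower at 48 h (-0.93), so time and depth of silencing cannot be told apart for any of them.

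Among the genes with the more negative value at 48 h, the chemokine gene CCL24 (-3.33), IGFBP5 (-3.24), L1CAM (-2.53), SEMA3A (-2.23) and MIR921 (-2.11) differed most. The clustered protocadherins PCDHB8 (-1.12), PCDHB13 (-1.07), PCDHGB1 (-0.96), PCDHB14 (-0.88), PCDHB5 (-0.85) and PCDHB12 (-0.72) were also among them; this list was followed whole, most others by a few members. Ligands and matrix genes were TNFAIP6 (-1.52), HAPLN1 (-1.34), TGFB2 (-1.03), CCL2 (-1.01), INHBA (-0.97) and the osteoprotegerin gene TNFRSF11B (-0.83). The others were KRT5 (-1.47), LRRN1 (-1.16), MYCL (-1.02), IRS1 (-0.84), E2F2 (-0.60) and the kinetochore motor gene CENPE (-0.54).

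Among those with the more positive value at 48 h were MXD4 (1.40) and MXD1 (0.88), both repressors that compete with Myc for MAX, and the p53 pathway genes TP53INP1 (0.83) and MDM2 (0.52). NR4A2 (1.44), the proton-sensing receptor gene GPR65 (1.97), MMP3 (2.00), the placental hormone gene INSL4 (2.14) and IFIT2 (2.69) were also among them, as were SYP (0.57), COL13A1 (0.64) and MYOF (0.64). MIR191 (4.10) rests on a few reads per library, and its 24 h value changed sign when a library was left out.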

How the results depend on the processing

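Under OHT at 24 h the count of 970 genes was 855 to 889 with 1 library left out, 959 with the siRAD21 OHT 48h libraries averaged, and 610 among genes with a mean of at least 5 eRPKM, 3000 without a fold threshold and 128 with a threshold of 1. In the same order of filter, no threshold and threshold of 1, the counts were 600, 1927 and 179 for 48 h minus 24 h, 740, 3870 and 218 for silencing without OHT, and 1507, 6777 and 565 for silencing at 48 h. With 1 library left out these 3 counts ranged over 666 to 942, 1105 to 1311 and 2348 to 2477. Averaging the siRAD21 OHT 48h libraries gave 651 and 2248 for the comparisons that use them. The test of OHT against no OHT at 24 h called no gene (906 at an unadjusted p below 0.05), 0 with any library left out, 5 among all genes above 0, 12 after quantile normalization, 12 after removal of a trend on GC content and length, 19 with voom on recovered reads and 4 with the replicate block. No clear pairing by replicate number was seen at 24 h. The replicate block gave 998 genes under OHT at 24 h, 982 for 48 h minus 24 h, 1292 without OHT and 2474 at 48 h. The voom, duplicate and GC and length analyses were chosen after the data were seen, and in the latter 97.1% of genes had a value. Log2 fold changes that changed sign were close to 0 or rest on few reads: STAG2 (0.013 after quantile normalization, 0.0387 after removal of the GC and length trend, -0.0365 to 0.0168 with a library left out), NIPBL (0.00828 with the GC and length trend removed, -0.109 to 0.067 with a library left out), HOXA13 (0.00778 and -0.115 to 0.0439), and, with a library left out, SMC3 (-0.00335 to 0.0402), HOXA9 (-0.191 to 0.0494), HOXA2 (-0.106 to 0.258), MIR191 (-2.46 to 0.328) and INSL4 (-0.755 to 0.00238). Of 1991 alternative values of named genes, 1846 kept direction and side of the threshold, 113 lost and 18 gained a call and 14 changed sign, and 462 of 493 list medians moved by less than the spread between replicates. With 2 libraries a group, a difference between effects had a median SE of 0.127, so small differences in single genes were not detectable.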
